A study of Sus scrofa with 42 samples.

Results

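The first cleavage of in vitro fertilized (IVF) pig embryos, from the 1-cell zygote to the 2-cell embryo, was described with the FPKM (fragments per kilobase of gene, scaled to the reads of a library) of 15351 genes. The libraries were chosen by their labels alone, the 3 of IVF 1-cell embryos and the 6 of single IVF 2-cell blastomeres, which make 9 of the 42 libraries of the series. The first number in a blastomere's name gives its embryo, and the FPKM of the blastomeres of an embryo were averaged, so that 3 zygotes were compared with 3 2-cell embryos, 6 of the 20 embryos sequenced.

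The series profiled single zygotes and blastomeres from the 1- to the 8-cell stage in IVF embryos and in parthenotes, eggs activated without sperm by an electric pulse and drugs (PA), to follow the decay of maternal RNA and the start of embryonic transcription. Ovaries came from slaughtered gilts, their oocytes were matured in vitro, and no group carries a transgene. PA eggs were kept after the pulse in 6-dimethylaminopurine, an inhibitor of protein kinases, and cytochalasin B, which blocks actin filaments and so the release of the polar body. IVF eggs were incubated with fresh semen in a medium that held caffeine and left to cleave in culture, and zygotes were collected at 19 h and 2-cell embryos at 27 h after that incubation. The PA 1-cell and 2-cell groups, which are used here for comparison, were collected 19 h and 27 h after the pulse and hold the same numbers of embryos and libraries. The zona pellucida was removed and blastomeres were separated by hand, and a whole zygote was thus set against single blastomeres of another embryo. Whether the embryos came from 1 or several batches of oocytes and semen is not given in the sources used here, so p-values measure only the spread between these samples.

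Until its own genome is switched on, an embryo lives on mRNA and protein that the oocyte stored while it grew. Stored mRNAs are kept silent by RNA-binding proteins, are released by lengthening of their poly(A) tails, and are then removed by deadenylation, decapping and decay. In pigs, most embryonic transcription starts some cleavages after fertilization, so the step from zygote to 2-cell embryo falls in the period that runs largely on maternal RNA, and the genome of the mitochondrion is transcribed by its own polymerase all along.

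The reads on genes, recovered from the FPKM as whole numbers, came to 10319592, 14687624 and 13299773 in zygotes 1, 2 and 3. They came to 8623118 and 12092408 in the sister blastomeres of 2-cell embryo 1, 13002494 and 14013471 in those of embryo 2, and 13062677 and 13552496 in those of embryo 3. These totals leave out the few genes whose reads could not be recovered, ATP6, ND5 and ND2 of the mitochondrion among them, and cover between 81.9% of the summed FPKM (the first blastomere of embryo 2) and 97.3% (zygote 1). On them, depth differed less than 2-fold between the deepest and the shallowest library. FPKM give a gene's share of its library, so that fewer copies of its own RNA, more of other RNAs and less RNA per cell cannot be told apart. Amplified reads without molecular identifiers are not independent molecules either, so the spread between embryos was used as the error throughout.

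Of 17 markers of oocyte and zygote, 14 were in the table, 12 of these had a mean of at least 1 FPKM over the 9 libraries, and none was at 0 in every library. Their FPKM summed to 1089, 1209 and 1304 in the zygotes and to between 1275 and 2002 in the blastomeres, and the most abundant was BTG4, the adaptor that recruits deadenylase to maternal mRNAs. Of 13 markers of follicle cells (cumulus and granulosa), 7 were in the table. These summed to 18.7, 18.7 and 6.36 FPKM in the zygotes and to between 0.565 and 15.9 in the blastomeres. LHCGR, the luteinizing hormone receptor, and TNFAIP6 were at 0 in all 9, while GATA4 had 8.06, 6.51 and 1.48 FPKM in the zygotes. STAR, the most abundant of the 7, overlaps ASH2L on the other strand. VCAN and GREM1, of a longer list of such genes, reached 9.40 and 4.90 FPKM in an embryo. Of 10 sperm markers only 2 were in the table. AKAP4, a protein of the sperm tail sheath, was at 0 in all 9 libraries and LDHC was present in every one. LDHC was also found in PA embryos, made without sperm, with a log2 fold change of -1.79 from the 1-cell to the 2-cell stage. Of 7 markers of leukocytes and blood, 5 were in the table, and none of these reached a mean of 1 FPKM. Their FPKM summed to at most 0.492 in the zygotes, to 8.58 in 1 blastomere of embryo 2, mostly CD68, to 6.79 in 1 of embryo 3, mostly PTPRC, PECAM1 and ITGAM, and to at most 0.883 in the other blastomeres.

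A pair of libraries stood apart by small nuclear and cytoplasmic RNAs. 7SK (ENSSSCG00000019556, Sscrofa11.1 chr7:46656764-46657094), the RNA that holds the elongation factor P-TEFb inactive, had 1610.0 FPKM in zygote 1 and 11615 FPKM in the first blastomere of 2-cell embryo 1. In the other 7 IVF libraries it had at most 5.95 FPKM, and in the 9 PA 1- and 2-cell libraries at most 14.0 FPKM. It took 1.41% and 7.80% of the summed FPKM of the pair. A signal recognition particle RNA (ENSSSCG00000032708) had 32.8 and 199 FPKM in the same pair and was at 0 in the other 7. Summed over 221 noncoding genes, the FPKM were 1659 and 12236 in the pair and between 21.3 and 259 in the others. Of protein-coding and noncoding genes together, 26 were at least 2-fold higher in both libraries than in each of the other 7, and the other 17 pairs of a zygote and a blastomere had between 7 and 32 such genes. Both belong to embryos numbered 1, 1 of each stage, and where the fold change of a gene at an unadjusted p below 0.05 is printed, the value without them follows if the fold differs by more than 1.5 times.

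No gene was called between IVF 1-cell and 2-cell embryos. Of 8116 genes with at least 1 FPKM in at least 3 of the 42 libraries, 0 (0%) met both limits of a call, an adjusted p below 0.05 and a change of 2-fold or more, by limma with Benjamini-Hochberg adjustment, and the smallest adjusted p was 0.13. At an unadjusted p below 0.05, 57 genes were higher (0.702%) and 159 lower (1.96%) in 2-cell embryos. Together these were 216 genes (2.66%), fewer than the 5% that this threshold lets through on its own, so the genes named from here on are the ends of a ranking and none is a call. The groups did not overlap for 287 genes that were higher (3.54%) and 656 that were lower (8.08%) in 2-cell embryos. Over all genes, the standard error of the log2 difference had a median of 0.82, and of 0.62 in the fit of the 4 groups.

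The whole distribution leaned downward. The median log2 fold change on the log2(FPKM + 1) scale was -0.11, and 58.7% of the genes tested lay below 0 against 40.2% above. The lean differed with the level of a gene. Among the 2342 genes with a mean under 1 FPKM the median was -0.02. The added 1 holds fold changes near 0 at that level, so this median cannot be set against the others. Among the 3793 genes between 1 and 10 FPKM the median was -0.19, and among the 1799 genes between 10 and 100 FPKM it was -0.20 with 64.0% below 0. The 182 genes with at least 100 FPKM had a median of 0.02 with 47.8% below 0, and 8 of them were higher and 0 lower at an unadjusted p below 0.05. These 8 include KPNA7 and 6 mitochondrial mRNAs, which are described below. Without zygote 1, 0 of the mitochondrial mRNAs passed that p. The lean is relative to the scaling. With each library scaled by its median ratio over nuclear genes, the median became 0.00 and the lower genes made up 57.6% in place of 73.6% of those at an unadjusted p below 0.05.

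**Figure D1:**
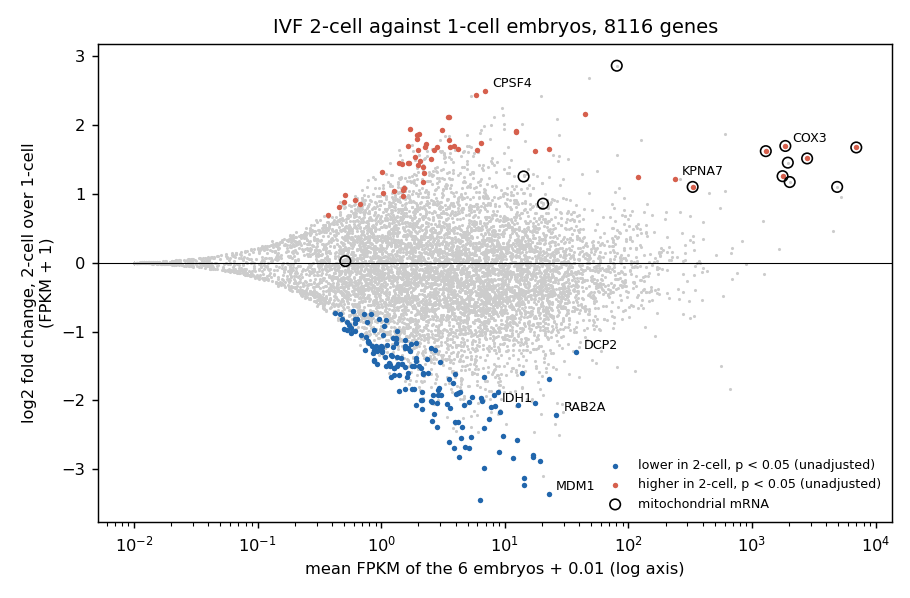
Log2 fold change of each of the 8116 genes tested (2-cell over 1-cell IVF embryos, FPKM + 1) against its mean FPKM over the 6 embryos on a log axis, 1 point a gene. The 57 red points and 159 blue points passed an unadjusted p of 0.05, the 13 circled points are mitochondrial mRNAs, and most blue points lie below 10 FPKM while the circled points lie above 0.

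The genes lower in 2-cell embryos were mostly of low level. The 159 genes had a median of 3.25 FPKM in zygotes and 0.255 FPKM in 2-cell embryos, and 29 of them reached 10 FPKM in zygotes. The 12 with the smallest p among those of at least 10 FPKM whose embryos did not overlap are described first.

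MDM1 (ENSSSCG00000000483, chr5:32644709-32673639), a microtubule-binding protein of centrioles, had 42.1, 35.3 and 42.1 FPKM in the zygotes and 0.0265, 13.1 and 3.38 FPKM in the 2-cell embryos. All zygotes lay above all 2-cell embryos, and embryo 2 was the highest of its group through 1 of its blastomeres with 25.3 FPKM. The log2 fold change was -3.35 ± 0.88 (estimate ± SE) with an adjusted p of 0.84 by limma with Benjamini-Hochberg adjustment. IDH1, the cytosolic NADP-dependent isocitrate dehydrogenase, had 14.3, 13.1 and 14.5 FPKM in the zygotes and 3.99, 2.06 and 1.88 FPKM in the 2-cell embryos. The zygotes lay between 13.1 and 14.5 FPKM and every blastomere lay below them, the highest at 6.58 FPKM, for a log2 fold change of -2.08 ± 0.67. IFNGR1 and ZKSCAN4, which head the ranking by p but lie under 10 FPKM, are given with the genes that went from present to absent.

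The next genes are set out by their roles, a grouping made after their values were seen. ATAD5, which unloads the clamp PCNA from replicated DNA, had 19.6, 33.2 and 37.6 FPKM in the zygotes and 4.02, 1.44 and 5.76 FPKM in the 2-cell embryos, with a log2 fold change of -2.79 ± 0.99, and -3.58 without the pair of libraries that stood apart. SLBP, which binds the stem-loop of histone mRNAs and sets their use to S phase, had 16.2, 15 and 7.77 FPKM before and 3.93, 3.1 and 0.543 FPKM after cleavage, with a log2 fold change of -2.09 ± 0.75. In both genes the lowest zygote lay above the highest 2-cell embryo and above every blastomere, by a narrow margin in SLBP (7.77 FPKM against 5.39 FPKM). POLG2, the accessory subunit of the mitochondrial DNA polymerase, had 20.1, 16.8 and 2.72 FPKM in the zygotes and 0.979, 0.292 and 0.115 FPKM in the 2-cell embryos. SMC6, of the SMC5/6 complex in DNA repair, had 15.8, 15.1 and 11.5 FPKM and 10.5, 1.8 and 0.174 FPKM, respectively. Their log2 fold changes were -2.98 ± 1.18 and -2.16 ± 0.87, and SMC6 in 2-cell embryo 1 came close to the lowest zygote. ATAD5 overlaps TEFM and SMC6 overlaps GEN1 on the other strand, and the strand counted is not given in the sources used here.

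GTF3C6, a subunit of TFIIIC for RNA polymerase III, had 40.5, 15.2 and 18.1 FPKM in the zygotes and 12, 0.0133 and 0.173 FPKM in the 2-cell embryos. The value of embryo 1 came from 1 of its sisters (23.9 FPKM against 0 FPKM), so that this blastomere exceeded zygotes 2 and 3. TAF13, a subunit of TFIID for RNA polymerase II, had 9.55, 26.1 and 10.8 FPKM and 0.0104, 6.43 and 0.497 FPKM, and here too 1 blastomere (12.8 FPKM, of embryo 2) carried nearly all of the 2-cell signal. The log2 fold changes were -3.23 ± 1.15 and -2.74 ± 1.12, and that of GTF3C6 was -2.51 without the pair of libraries that stood apart. RAB2A, a small GTPase of traffic between endoplasmic reticulum and Golgi, had 20.8, 61.3 and 50.4 FPKM in the zygotes and 7.45, 10.6 and 6.13 FPKM in the 2-cell embryos. BORCS5, which couples lysosomes to kinesin, had 15.4, 43.8 and 19.4 FPKM and 0.185, 3.32 and 3.43 FPKM. All 6 blastomeres lay below all 3 zygotes in both genes, and the log2 fold changes were -2.21 ± 0.82 (-2.85 without the same pair) and -3.12 ± 1.14. The last of the 12 is an unnamed gene (ENSSSCG00000036773) with 15.8, 14.3 and 7.26 FPKM in the zygotes and 0.175, 0.0564 and 0.309 FPKM in the 2-cell embryos.

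The smallest p of these 12 belonged to the precursor gene of miR-424, a microRNA of the miR-15/16 seed family. It had 1.52, 2.95 and 26.3 FPKM in the zygotes and 0 FPKM in all 6 blastomeres, a log2 fold change of -2.70 ± 0.57 with an adjusted p of 0.28 by limma with Benjamini-Hochberg adjustment. In the same test it was called without the pair of libraries that stood apart (log2 -3.38, adjusted p 0.0197), without zygote 1 (adjusted p 0.031) and without zygote 3 (log2 -1.66, adjusted p 0.0432). It was not called without zygote 2 or without any single 2-cell embryo. These FPKM rest on 3, 7 and 58 reads, since the gene is 80 bases long, and reads in such a library can come from the precursor or a longer primary transcript, not from the mature microRNA alone. It was at 0 in all PA 1- and 2-cell embryos as well. Its sequence is shown because the whole signal rests on this short stretch of chrX:110387902-110387981 (Sscrofa11.1, minus strand), read from the RefSeq copy of that assembly. It is given 5′ to 3′ in the DNA alphabet and in lower case throughout, because the mature strand is not marked in the files.
ssc-mir-424: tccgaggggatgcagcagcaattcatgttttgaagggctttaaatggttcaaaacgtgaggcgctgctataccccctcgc

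**Figure D2:**
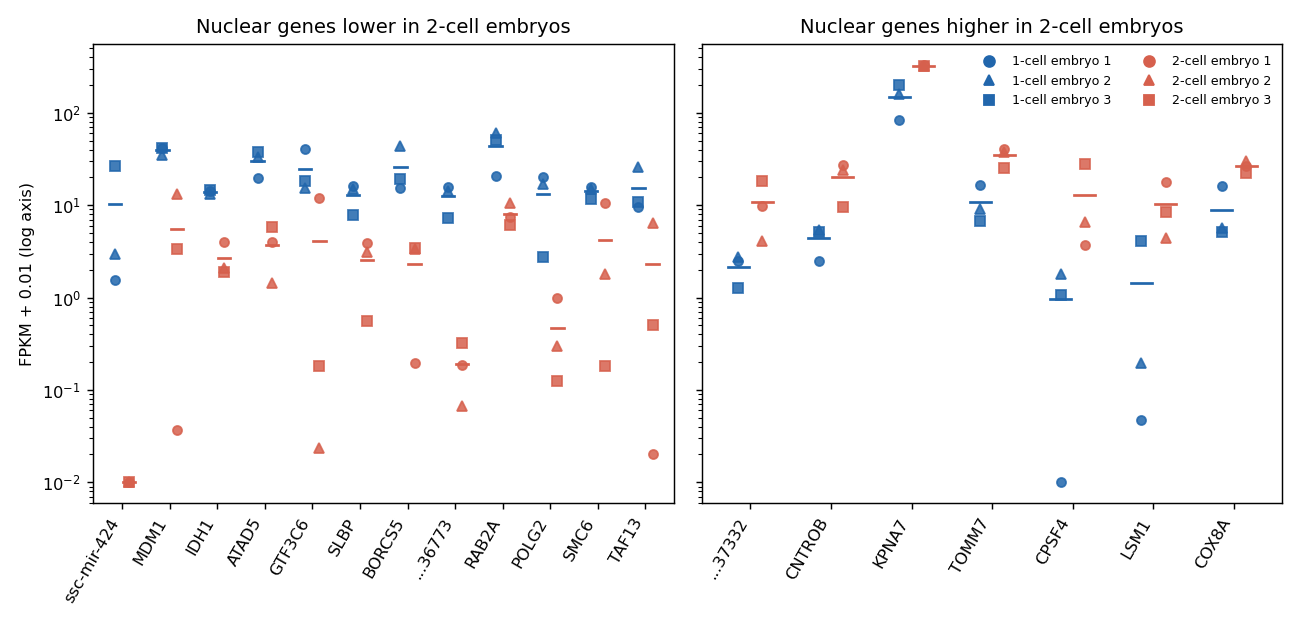
FPKM + 0.01 on a log axis of the nuclear genes named first, 12 lower (left) and 7 higher (right) in 2-cell embryos, with 1 point an embryo (blue, zygotes, and red, 2-cell embryos, each the mean of 2 blastomeres) and bars at the group means. Blue and red points of a gene do not overlap, which the choice of genes required, and KPNA7 is the most abundant with 2-cell embryos between 320 and 331 FPKM.

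The nuclear genes higher in 2-cell embryos were few and uneven between blastomeres. Of the 57 genes at an unadjusted p below 0.05, 50 lay on nuclear chromosomes, and over all 57 the median was 0.612 FPKM in zygotes and 4.17 FPKM in 2-cell embryos. KPNA7 (ENSSSCG00000007607, chr3:6167385-6201259), an importin alpha found mainly in oocytes and early embryos that carries proteins into the nucleus, was the most abundant. It had 84, 162 and 199 FPKM in the zygotes and 331, 324 and 319.9 FPKM in the 2-cell embryos. The 6 blastomeres had 330.3, 332, 340.4, 307, 389 and 251 FPKM, all above the highest zygote, and the fold change was 2.32 (log2 1.21 ± 0.51).

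CNTROB, centrobin of the daughter centriole, had 2.51, 5.4 and 5.16 FPKM in the zygotes and 27.1, 23.9 and 9.47 FPKM in the 2-cell embryos, with a log2 fold change of 1.91 ± 0.78. TOMM7, a small subunit of the import channel in the outer mitochondrial membrane, had 16.4, 9.01 and 6.79 FPKM and 40.9, 37.9 and 25 FPKM, with a log2 fold change of 1.66 ± 0.72. Every blastomere lay above every zygote for both, at 6.50 FPKM or more against at most 5.40 FPKM for CNTROB and at 22.4 FPKM or more against at most 16.4 FPKM for TOMM7. COX8A, a nuclear-encoded subunit of cytochrome c oxidase, had 16.1, 5.67 and 5.07 FPKM in the zygotes and 26.3, 30.1 and 22.5 FPKM in the 2-cell embryos. The groups did not overlap, but the 2 lowest blastomeres, at 14.3 and 15.1 FPKM, lay below zygote 1. Its log2 fold change was 1.62 ± 0.76, and 2.27 without the pair of libraries that stood apart.

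The other named genes of this direction drew their signal from some blastomeres only. CPSF4, the zinc finger subunit of the complex that cleaves pre-mRNA before polyadenylation, had 7.31, 0.0399, 13, 0.015, 44 and 12.4 FPKM in the 6 blastomeres, sister beside sister, against 0, 1.79 and 1.05 FPKM in the zygotes. LSM1, of the ring that leads deadenylated mRNA to decapping, had 0.0969, 35.7, 0.0253, 8.79, 0 and 17 FPKM in the blastomeres against 0.0375, 0.187 and 4.05 FPKM in the zygotes. In each embryo 1 sister carried nearly all of LSM1, and in embryos 1 and 2 the same held for CPSF4, which overlaps PTCD1 and ATP5J2 on the other strand. The log2 fold change of CPSF4 was 2.49 ± 1.14, and 1.35 without the pair of libraries that stood apart. An unnamed gene (ENSSSCG00000037332) had 2.45, 2.71 and 1.26 FPKM in the zygotes and 9.92, 4.07 and 18.4 FPKM in the 2-cell embryos.

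A stricter count asks that each blastomere lie on the same side of each zygote. Among the 8116 genes, 27 (0.333%) had all 6 blastomeres above all 3 zygotes and 280 (3.45%) had all 6 below. Of the 50 nuclear genes higher at an unadjusted p below 0.05, 4 met it (CNTROB, KPNA7, TOMM7 and MPC1, a subunit of the mitochondrial pyruvate carrier), while 85 of the 159 lower genes did. Genes that met it with a larger p, picked here after their values were seen, include BORA, the activator of the mitotic kinase Aurora A, with 68.8, 37.6 and 57.4 FPKM in the zygotes and 148, 105, 124, 84.1, 122 and 103 FPKM in the blastomeres. They also include POLR2J, a subunit of RNA polymerase II that overlaps LRWD1 on the other strand, with 11, 9.62 and 14.1 FPKM and 24.5, 29.1, 65.3, 44.9, 19.3 and 42.1 FPKM. On the lower side they include RBBP4, a histone-binding subunit of several chromatin complexes, with a mean of 170.3 ± 17.7 FPKM (SD, n = 3) before and 56.7 ± 1.74 FPKM (SD, n = 3) after cleavage. HSPH1, a chaperone of the HSP110 family, had 43, 70.2 and 68.4 FPKM in the zygotes and 24.3, 10.7 and 22.4 FPKM in the 2-cell embryos. SMC3, of the cohesin ring, had means of 81.5 and 46 FPKM.

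Mitochondrial mRNAs made up a larger share of the library after cleavage. The 13 mRNAs of the mitochondrial genome, all subunits of the respiratory chain and ATP synthase, took 3.89%, 13.5% and 14.5% of the summed FPKM in zygotes 1, 2 and 3. They took 15.6%, 28.8% and 22.6% in 2-cell embryos 1, 2 and 3, and every 2-cell embryo lay above every zygote, embryo 1 by a small margin. The means were 10.7% ± 5.89 and 22.3% ± 6.61 (SD, n = 3), and a two-sided exact permutation test gave p = 0.1, the smallest that 3 embryos against 3 allow. The blastomeres had 12.2% and 18.98% in embryo 1, 29.7% and 27.9% in embryo 2, and 21.1% and 24.2% in embryo 3. The first blastomere of embryo 1, which is 1 of the pair that stood apart, lay within the zygotes. Without that pair the difference was 9.42 percentage points in place of 11.7.

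All 13 mRNAs had a log2 fold change above 0, with a median of 1.26 beside -0.11 over all genes tested. Of them, 6 passed an unadjusted p of 0.05 in limma beside a background of 0.702% for that direction. All were read in the same embryos, with zygote 1 the lowest for most, so the 6 are not separate observations. ATP6, a subunit of the proton channel of ATP synthase, had 831, 5998 and 4810.1 FPKM in the zygotes and 6005, 16197 and 8015 FPKM in the 2-cell embryos. COX3, of cytochrome c oxidase, had 269, 1489.9 and 1144 FPKM and 1630.5, 4504 and 2129 FPKM, respectively. Zygote 1 was by far the lowest embryo for both genes and the groups did not overlap. The log2 fold changes were 1.67 ± 0.59 and 1.70 ± 0.55, and 0.92 and 1.05 without the pair of libraries that stood apart.

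COX1, the catalytic subunit of cytochrome c oxidase, had 455, 2204 and 2238 FPKM in the zygotes and 2627, 5768 and 3459.5 FPKM in the 2-cell embryos. COX2, which takes up electrons from cytochrome c, had 236, 968 and 896 FPKM and 1210.0, 2101 and 2348 FPKM. CYTB, the core of complex III, had 376, 1648 and 1441 FPKM and 1740.2, 2185 and 3215 FPKM. None of these 3 overlapped between the groups, and their log2 fold changes were 1.51 ± 0.56, 1.62 ± 0.54 and 1.26 ± 0.58. Without the pair of libraries that stood apart they were 0.88, 1.10 and 0.73, and without zygote 1 alone COX1 came to 0.75 and CYTB to 0.58. ND4, a subunit of complex I, was the last of the 6 and had 119, 329 and 184 FPKM in the zygotes and 256, 690.5 and 407 FPKM in the 2-cell embryos, so that zygote 2 lay above 2-cell embryo 1, and its log2 fold change was 1.10 ± 0.49 with the pair and 0.77 without it. Of the other complex I subunits, ND2 had 799.6, 1259 and 1773 FPKM before and 2745, 2313 and 3221 FPKM after cleavage, with each blastomere above each zygote. ND5 had 979, 4161 and 5355 FPKM and 4208, 5839 and 8769 FPKM, and it overlaps ND6 on the other strand. ND1 varied most, with 0.383, 1.94 and 101 FPKM in the zygotes and 159, 3.59 and 217 FPKM in the 2-cell embryos. ATP8 had the lowest FPKM of the 13, at most 1.44 in any embryo. Whether its transcript was scarce or its reads were poorly assigned was not tested.

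The count of 6 rested on zygote 1. Without that embryo 0 of the 13 mRNAs passed an unadjusted p of 0.05, and without the pair of libraries that stood apart 2 did, while 12 of 13 kept a log2 fold change above 0 with a median of 0.84. In IVF 4-cell embryos, collected at 48 h, the mean was 21799 FPKM for ATP6 and 6708 FPKM for COX3. Nuclear-encoded subunits of the respiratory chain lay on both sides of 0. Of 63 tested, 27 lay above and 34 below 0 with a median of -0.02, COX8A and ATP5F1D were higher and UQCRQ, which overlaps GDF9 on the other strand, was lower at an unadjusted p below 0.05. Of all genes tested, 40.2% lay above and 58.7% below 0, and 0.702% were higher and 1.96% lower at that p.

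**Figure D3:**
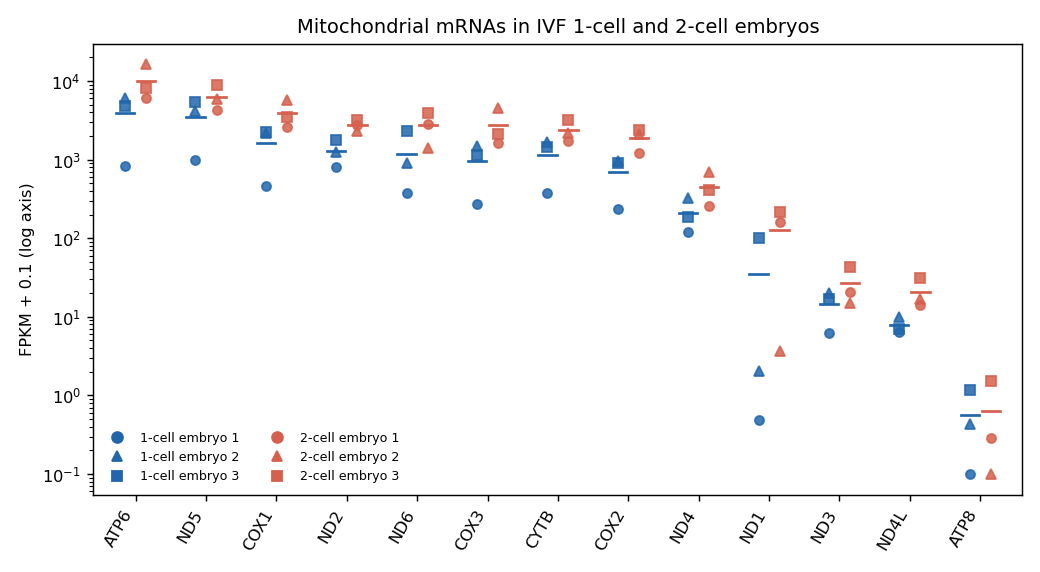
FPKM + 0.1 on a log axis of the 13 mitochondrial mRNAs in IVF zygotes (blue) and 2-cell embryos (red, each the mean of 2 blastomeres), 1 point an embryo with bars at the group means, ordered by level. Zygote 1 (blue circles) is the lowest point for most genes, and the group means of all 13 genes are higher in 2-cell embryos.

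Some genes went from reads in every zygote to next to none in any blastomere. A gene was counted where each zygote had at least 20 recovered reads and each blastomere at most 5, limits set after the data were seen, and 34 of the 5120 genes with 20 reads in each zygote met this (0.664%). IFNGR1, the ligand-binding chain of the interferon gamma receptor, had 286, 388 and 167 reads in the zygotes and 0 in all 6 blastomeres. MDH1, the cytosolic malate dehydrogenase, had 802, 37 and 56 reads and then 0 in all 6. ASZ1, a germ cell protein of the piRNA pathway, had 128, 26 and 153 reads and then 0 in all 6. DUSP1, a phosphatase that ends MAP kinase signals, had 792, 180 and 116 reads in the zygotes and between 1 and 5 in the blastomeres. HASPIN, the kinase that marks histone H3 at centromeres in mitosis, had 39, 118 and 58 reads and then at most 3. ZKSCAN4, a zinc finger gene, had 61, 129 and 98 reads and then at most 1. In FPKM these were genes of low level, with zygote means between 0.141 FPKM (EVL) and 7.25 FPKM (MDH1).

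IFNGR1 and ZKSCAN4 also had the smallest p over all genes. Their adjusted p was 0.13 and 0.23 by limma with Benjamini-Hochberg adjustment in the fit of 8 groups, and they were the 2 genes (0.0246%) called when the fit was limited to the 4 groups of 1- and 2-cell embryos, where 132 genes were higher (1.63%) and 284 lower (3.5%) at an unadjusted p below 0.05. Their log2 fold changes were -1.47 and -1.27, which the added 1 holds down at such levels. Without the pair of libraries that stood apart their adjusted p was 0.0351 and 0.0241 by limma, and both were called.

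The reverse pattern, at most 5 reads in each zygote and at least 20 in each 2-cell embryo, was met by 12 of 4973 genes (0.241%). None of the 12 had 20 reads in all 6 blastomeres. NIM1K, a kinase of the AMPK family, had 0, 274, 276, 0, 0 and 450 reads in the blastomeres of embryos 1, 2 and 3, sister beside sister. NFAT5, the transcription factor of the response to salt stress, had 26, 900, 1196, 1, 102 and 1 reads. PADI4, a peptidylarginine deiminase, had 54, 31, 47, 2, 0 and 342 reads. A gene in this list was thus typically found in 1 sister of an embryo and absent from the other. With limits of 50 and 5 reads the counts were 12 and 3, and with 20 and 0 reads 11 and 3. Without the pair of libraries that stood apart, 161 of 6378 genes were lost and 12 of 4515 gained at the first limits. In PA embryos 74 of 4508 genes (1.64%) were lost and 1 of 3594 (0.0278%) gained, with 1 gene lost in both methods and 0 gained in both.

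On average, fewer genes were detected in a blastomere than in a zygote. Averaged over an embryo's blastomeres, 7803, 9386 and 9453 genes had FPKM above 0 in the zygotes and 7222, 7439.5 and 7742.5 in the 2-cell embryos. The groups did not overlap, though zygote 1 came close to 2-cell embryo 3, whose second blastomere lay above it at 7814 genes. The means were 8881 ± 934 and 7468 ± 261 (SD, n = 3), a difference of -1413 with p = 0.1 by a two-sided exact permutation test, the smallest possible. Counted at 1 FPKM or more, the groups overlapped, with 4753 genes in zygote 1 and 4834 in 2-cell embryo 3 (exact permutation p = 0.2). The sisters of an embryo did not miss the same genes. Counted in either sister, 8854, 8811 and 9023 genes were detected in the 2-cell embryos, on average 15.3 more than in the zygotes (exact permutation p = 1). This difference changed direction without 2-cell embryo 3 and, by more, without zygote 1, which is 1 of the pair that stood apart. The other zygotes lay above all 3 2-cell embryos, and without zygote 1 the 2-cell embryos had a mean difference of -523.5 genes (exact permutation p = 0.1, the smallest that 2 embryos against 3 allow). At 8000000 reads for each embryo, split evenly over its cells, 8418 genes were expected in zygotes and 8009 in 2-cell embryos (exact permutation p = 0.4), a difference of -409 that was -897 without zygote 1 and -191 and -139 without zygotes 2 and 3. At 8000000 reads for each cell, the numbers were 8418 and 6957 (exact permutation p = 0.1). The lower number in 2-cell embryos thus held for the mean over single blastomeres whichever embryo was left out. For whole embryos its size, and in the count over either sister its direction, changed with the embryos included.

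**Figure D4:**
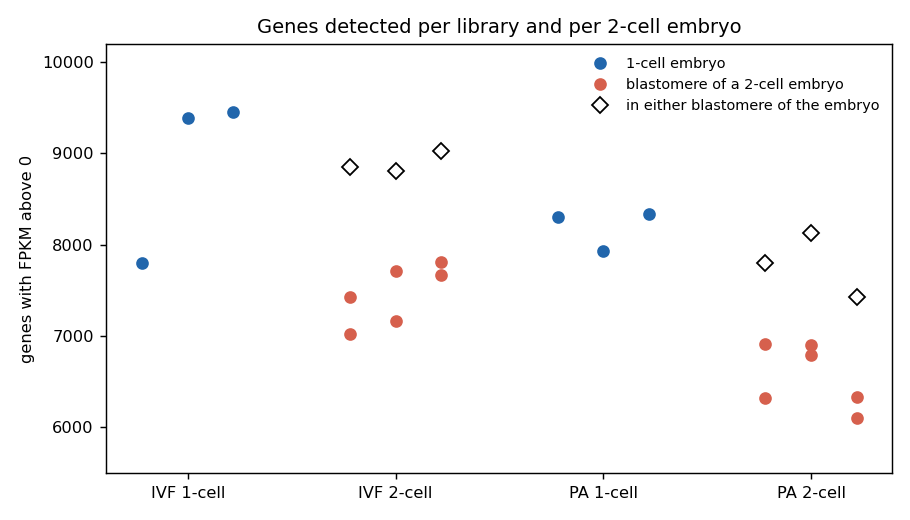
Genes with FPKM above 0 in each 1-cell embryo (blue) and each 2-cell blastomere (red), and in either blastomere of an embryo (open diamonds), for IVF and PA, with embryos 1, 2 and 3 from left to right. The vertical axis does not start at 0, and the open diamonds of IVF lie among the zygotes, between 8811 and 9023 genes, while the blastomeres lie lower.

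Sister blastomeres were little more alike than blastomeres of different embryos, and low genes were split most unevenly between them. Pearson's r of log2(FPKM + 1) over the genes tested was between 0.737 and 0.801 for the 3 pairs of sisters, between 0.710 and 0.787 for the 12 pairs of blastomeres from different embryos, and between 0.831 and 0.908 for the 3 pairs of zygotes. These are correlations across genes, which share levels and library, and are given as a description. Within an embryo, the higher of the sisters held a median of 100% of a gene's FPKM where the gene's mean was under 1 FPKM, 85.9% at 1 to 10 FPKM, 63.1% at 10 to 100 FPKM and 56.2% at 100 FPKM or more, where an even split would give 50%. Over all 8116 genes this median was 80.9%, 4499 genes were above 0 in all 6 blastomeres, 197 were at 0 in all 6 and 6405 were above 0 in all 3 zygotes. For the 50 nuclear genes that were higher at an unadjusted p below 0.05 it was 99.1%, and 21 of them were above 0 in all 6 blastomeres. For the 159 lower genes the median was 98.7%, and 15 of these were at 0 in all 6 blastomeres while 136 were above 0 in all 3 zygotes.

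Genes that define the oocyte ranged from among the most abundant to nearly absent at both stages. Among 20 genes of oocyte and zygote identity tested, 14 lay above and 6 below 0 with a median log2 fold change of 0.29, and 1 was higher at an unadjusted p below 0.05. This and the following lists stand beside the shares of all genes tested given for the respiratory chain and the median of -0.11. The higher gene was DPPA5, an RNA-binding protein of early embryos and germ cells, with 0.463, 0.931 and 0.353 FPKM in the zygotes and 4.33, 4.22 and 1.63 FPKM in the 2-cell embryos. BTG4 had 675, 762 and 754 FPKM and 922, 634 and 1269 FPKM. H1-8, the oocyte linker histone, had 114, 152 and 191 FPKM in the zygotes and 219, 225 and 314 FPKM in the 2-cell embryos, which did not overlap. OOSP2, an oocyte-secreted protein, had 165, 143 and 153 FPKM and 198, 250.4 and 277 FPKM and did not overlap either, and BMP15, the oocyte's growth factor, had 77, 90 and 142 FPKM and 134, 142 and 119.8 FPKM. The log2 fold changes of H1-8, OOSP2 and BMP15 were 0.74 ± 0.44, 0.64 ± 0.87 and 0.40 ± 0.48, each within 2 standard errors of 0, and that of H1-8 was 0.47 without the pair of libraries that stood apart. Other members were scarce. ZP3, of the egg coat, had at most 6.64 FPKM in any of the 9 libraries, ZAR1, which binds stored maternal mRNAs, at most 2.31 FPKM and TLE6, of the subcortical maternal complex, at most 1.54 FPKM.

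The lists of maternal mRNA decay and storage gave 1 gene each at an unadjusted p below 0.05, and LSM1, described above, was higher and stood in the spliceosome list. Of 29 genes of deadenylation, decapping and decay, 13 lay above and 16 below 0 with a median of -0.26. DCP2, the decapping enzyme, was the 1 that passed an unadjusted p of 0.05, with 37.6, 65.1 and 59.5 FPKM in the zygotes and 16.4, 30.8 and 17.7 FPKM in the 2-cell embryos, all 6 blastomeres below all zygotes, and a log2 fold change of -1.30 ± 0.61. CNOT6L, a catalytic deadenylase subunit, had 17.3, 29.7 and 32 FPKM and 29.7, 27.9 and 41.8 FPKM. Of 26 genes of mRNA storage and translational control, 9 lay above and 17 below 0 (median -0.18) and only CPSF4, described above, passed. IGF2BP3, which binds and stabilises maternal mRNAs, had 1168, 652 and 607 FPKM in the zygotes and 871, 559 and 702 FPKM in the 2-cell embryos, with a log2 fold change of -0.14 ± 0.37, which was 0.16 without the pair of libraries that stood apart.

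Of the genes of division and of DNA replication, 1 each was lower and none higher at an unadjusted p below 0.05. Of 31 genes of meiotic exit and M phase, 8 lay above and 23 below 0 (74.2%, beside 58.7% of all genes tested) with a median of -0.25, and ESPL1, separase, passed an unadjusted p of 0.05 with 7.39, 5.75 and 4.92 FPKM in the zygotes and 4.68, 0.308 and 0.55 FPKM in the 2-cell embryos. The value of 2-cell embryo 1 came from 1 blastomere with 9.35 FPKM, the one of the pair that stood apart, and the log2 fold change was -1.62 ± 0.71 with it and -2.32 without the pair. PTTG1, securin, which holds separase inactive, had 242, 168 and 173 FPKM and 327, 408 and 247 FPKM, non-overlapping in the upward direction (log2 0.74 ± 0.54). WEE2, the oocyte kinase that inhibits CDK1, had 299, 452 and 451 FPKM and 274, 291 and 655 FPKM. Of 36 replication genes, 15 lay above and 21 below 0 (58.3%, near the share of all genes, median -0.17), and RPA2, of the single-strand DNA binding complex, passed with 26.6, 5.97 and 11.7 FPKM in the zygotes and 2.33, 2.28 and 3.55 FPKM in the 2-cell embryos. PCNA, the sliding clamp, had 2952, 1012 and 914 FPKM and 2539, 1442 and 1122 FPKM.

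Candidate genes for the start of embryonic transcription gave no call. Of 17 candidates tested, 8 lay above and 9 below 0 with a median of -0.03, and none passed an unadjusted p of 0.05. YAP1 (318, 256 and 285 FPKM), OTX2 and SALL4 were already abundant in the zygotes, so their levels cannot show such a start. NANOG, KLF17, NR5A2 and MYC had at most 0.145 FPKM in any embryo of either stage. SALL4, a zinc finger factor of pluripotent cells, had 66.5, 94.5 and 57 FPKM in the zygotes and 36.4, 38.9 and 35.7 FPKM in the 2-cell embryos, with all blastomeres below all zygotes and a log2 fold change of -0.92 ± 0.57. EIF1AX, a translation initiation factor, had 1.4, 8.8 and 5.6 FPKM and 5.63, 12.6 and 7.69 FPKM. Of 29 genes of RNA polymerase II and elongation, 8 lay above and 21 below 0 (median -0.20) with none at an unadjusted p below 0.05. Of 16 immediate-early and MAPK feedback genes, 8 lay above and 8 below 0, and ID3, an inhibitor of basic helix-loop-helix factors, was the most abundant with 159, 438 and 576 FPKM in the zygotes and 261, 379 and 76 FPKM in the 2-cell embryos.

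DNMT1 and UHRF2, the most abundant genes of the DNA methylation list, overlapped between the stages. DNMT1, the maintenance DNA methyltransferase, had 1511, 1412 and 1075 FPKM in the zygotes and 1324, 1142 and 1090.5 FPKM in the 2-cell embryos (log2 -0.16 ± 0.38), and UHRF2 had 504, 731 and 653 FPKM and 624, 588 and 1016 FPKM. Of 14 genes of DNA methylation 4 lay above and 9 below 0, and of 14 genes of H3K4 methylation 5 and 9, with none at an unadjusted p below 0.05 in either. Of 13 histone genes 1 passed, MACROH2A1, a macroH2A variant with 3.56, 1.36 and 1.54 FPKM in the zygotes and 0.472, 0.102 and 0.0457 FPKM in the 2-cell embryos. Of 165 ZNF zinc finger genes, 57 lay above and 108 below 0 (median -0.17), with 3 higher (1.82%) and 6 lower (3.64%) at an unadjusted p below 0.05, where 0.702% and 1.96% of all genes tested were and 58.7% lay below 0. ZNF280C had 7.77, 6.2 and 6.2 FPKM in the zygotes and 0.0184, 0.474 and 0.354 FPKM in the 2-cell embryos, and ZNF43 had 1.77, 1.34 and 2.07 FPKM and 0, 0 and 0.0524 FPKM. ZNF529, ZNF527, ZNF618 and ZNF502 were the other lower ones, and ZNF618, at 6.96, 1.82 and 0 FPKM before cleavage, had a log2 fold change of -1.47 with the pair of libraries that stood apart and -0.73 without it, while ZNF527 went from -1.88 to -2.83 and ZNF502 from -1.69 to -3.27 with an adjusted p of 0.0205 by limma. ZNF366 and ZNF333 were higher, and so was ZNF577, with 0.0188, 0.747 and 1.51 FPKM and 4.76, 7.85 and 1.87 FPKM and a log2 fold change of 1.68 ± 0.77 that came to 0.52 without the pair.

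Of the housekeeping lists, those of the ribosome and the proteasome had no member at an unadjusted p below 0.05. Of 69 cytosolic ribosomal protein genes 34 lay above and 30 below 0 with a median of 0, and of 33 proteasome subunits 18 and 15 (median 0.11). Of 67 genes listed for the spliceosome and hnRNPs 28 lay above and 39 below 0 (median -0.11). MECR, by that name not a splicing gene, is counted among the 67 and lay below 0. In this list LSM1 was higher (1.49%) and HNRNPH2 and SNRPF were lower (2.99%), beside 0.702% and 1.96% of all genes tested. HNRNPH2, a splicing regulator, had 2.32, 5.55 and 4.43 FPKM in the zygotes and 0.437, 0.00593 and 0 FPKM in the 2-cell embryos, and SNRPF, of the Sm ring, had 0.323, 2.95 and 3.54 FPKM and 1.07, 0.0155 and 0 FPKM. Heat shock proteins and chaperonin had the lowest median of the lists with at least 6 members tested, -0.40 over 24 genes with 10 above and 14 below 0 and none at an unadjusted p below 0.05. Calcium signalling of egg activation had 8 above and 9 below 0 of 17 with a median of -0.22. Of 23 noncoding RNAs tested 11 lay above and 5 below 0 with a median of 0. Those of 7SK, the signal recognition particle and U2 all lay above 0. They were highest in zygote 1 and 2-cell embryo 1, the embryos of the pair of libraries that stood apart. Of the marker lists, 6 cumulus and granulosa genes lay 3 and 3, the 3 sperm and spermatid genes tested (ODF2, HOOK1 and LDHC) all lay below 0 with a median of -0.94, and the 2 leukocyte genes tested lay above 0 with a median of 0.38. None of the members of these marker lists passed an unadjusted p of 0.05.

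**Figure D5:**
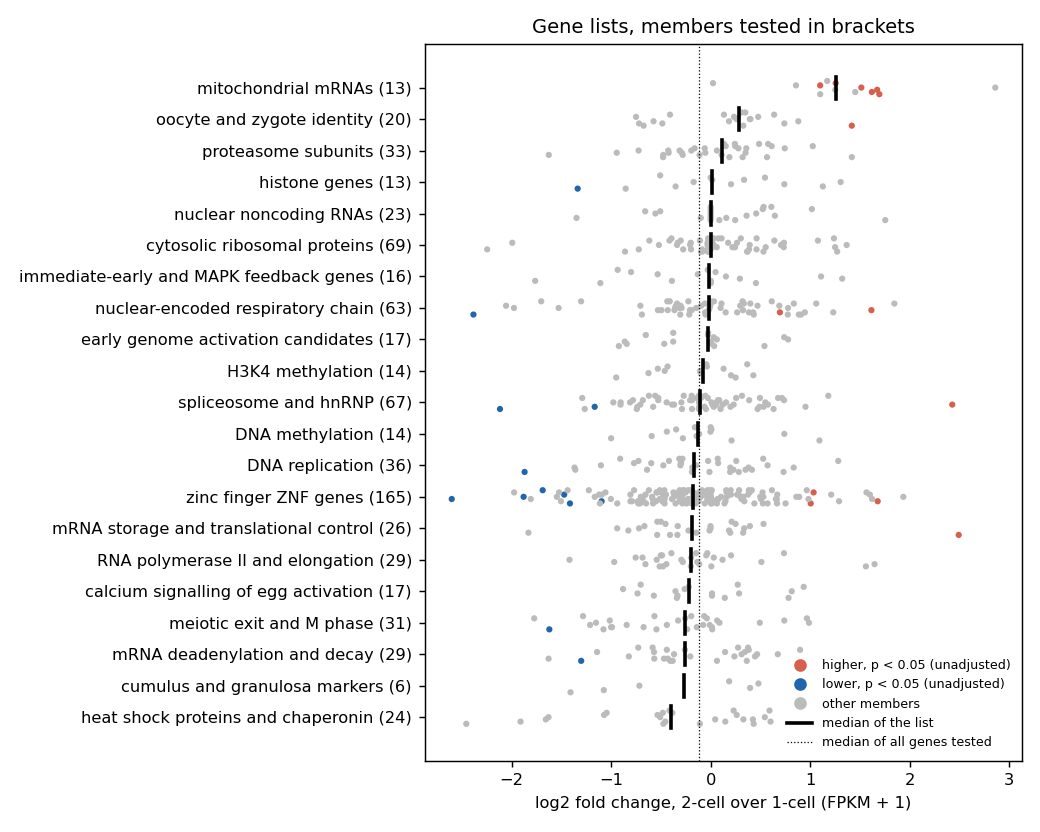
Log2 fold change (2-cell over 1-cell IVF embryos, FPKM + 1) of each member of the gene lists with at least 6 members tested, 1 point a gene, with the list's median as a black bar and the median of all genes tested (-0.11) as a dotted line. The 13 mitochondrial mRNAs are all above 0, with 6 red points (higher at an unadjusted p below 0.05), and the ZNF genes have 3 red and 6 blue points (lower at that p).

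The 10 most abundant nuclear genes overlapped between the stages. The highest was an unnamed gene (ENSSSCG00000000296) with 5958, 3033 and 2818 FPKM in the zygotes and 5883, 5037 and 4522 FPKM in the 2-cell embryos. PCNA, DNMT1, BTG4, IGF2BP3 and UHRF2, described above, were among the 10 highest, and so was CRK, an adaptor of tyrosine kinase signals, with 1256, 456 and 476 FPKM and 999.7, 654 and 257 FPKM. The log2 fold changes of 9 of them lay between -0.23 and 0.47 (the highest, ENSSSCG00000000296, was 0.82 without the pair of libraries that stood apart), and that of 7SK, which is among the 10 through the pair of libraries that stood apart, was 0.61 ± 2.72.

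Parthenotes passed the same step without sperm and after the drugs, which cannot be told apart here, in other libraries. Of the 8116 genes, 8 (0.0986%) were called between PA 1-cell and 2-cell embryos, with 84 higher (1.03%) and 310 lower (3.82%) at an unadjusted p below 0.05, and the median log2 fold change was -0.09. A pair of PA 2-cell libraries is nearly repeated among the PA 4-cell libraries that enter the estimate of the spread (r = 0.999 for each), and without those 4-cell libraries 10 genes were called in PA and 0 in IVF. Of the 57 genes higher in IVF, 21 (36.8%) had a log2 fold change above 0 in PA, where 41.3% of all genes tested did, and 0 passed an unadjusted p of 0.05 there. Of the 159 lower genes, 114 (71.7%) lay below 0 in PA, where 56.8% of all genes tested did, and 16 passed. ATAD5, SLBP, POLG2 and TAF13 were among these, with PA log2 fold changes of -2.55 ± 0.99, -1.75 ± 0.75, -2.89 ± 1.18 and -3.57 ± 1.12.

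The difference between the 2 methods was tested gene by gene as an interaction, and 0 of 8116 genes passed an adjusted p of 0.05 (limma with Benjamini-Hochberg adjustment, smallest 0.17) and 227 (2.80%) passed an unadjusted one. MDM1 and IDH1 had fold changes of opposite sign in the 2 methods. MDM1 had PA means of 5.25 FPKM in 1-cell and 24.1 FPKM in 2-cell embryos, and its log2 fold change in IVF minus that in PA was -5.28 ± 1.24, with an adjusted p of 0.85 by limma with Benjamini-Hochberg adjustment. IDH1 had PA means of 3.02 and 6.16 FPKM, a difference between the steps of -3.09 ± 0.95. KPNA7 had PA means of 382 and 294 FPKM, so that its PA 1-cell mean lay above its IVF 2-cell mean, with a difference between the steps of 1.62 ± 0.72.

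The mitochondrial share was 10.8% in PA 1-cell and 13.1% in PA 2-cell embryos. The step in IVF exceeded that in PA by 9.37 percentage points, and an exact permutation of the stages within each method (400 assignments) gave p = 0.26. Without zygote 1 this excess was 5.99 percentage points (exact permutation p = 0.395), and without 2-cell embryo 2 it was 6.14 (exact permutation p = 0.505). Of the 13 mRNAs the median log2 fold change was 0.44 in PA and 1.26 in IVF. In genes detected the steps differed by 217 genes (exact permutation p = 0.91), with the larger difference in PA, but without zygote 1 the value was -322 genes, with the larger difference in IVF (exact permutation p = 0.84), and the difference lay between 79.8 and 503 genes in the first direction without any 1 of the other IVF embryos. Neither measure passed a p of 0.05 between the 2 methods with any IVF embryo left out.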

How the data were processed

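The authors amplified cDNA of each lysed cell, from RNA with or without poly(A) tails, sequenced it on a HiSeq X-Ten, mapped reads to Sscrofa11.1 with HISAT2, counted them with HTSeq and deposited FPKM of 15351 genes in 42 libraries, the only values used. Program versions, strandedness and molecular identifiers are not given in the sources used here. The extraction protocol in the labels describes another procedure, total RNA of oocytes. Genes that overlap on opposite strands (4154) are therefore uncertain.

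Whole reads, within 0.01 of a read, were recovered for 14578 of 14692 expressed genes (99.2%) and served for depth and for presence or absence only. The FPKM of an embryo, averaged over its blastomeres, plus a pseudocount of 1 and on the log2 scale, was tested with limma 3.58.1 in R 4.3.3 with a mean-variance trend. All 8 groups of method and stage (20 embryos) shared 1 estimate of the spread, and genes needed FPKM of at least 1 in at least 3 libraries. This replaces the study's count test on cells, since the unit is FPKM and cells of an embryo are not replicates. The script was tested on simulated data. Other values came from Python 3.11.15 with pandas 2.3.3, numpy 2.4.6, scipy 1.17.1 and matplotlib 3.10.9.

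Named genes were the 12 with the smallest p in each direction with at least 10 FPKM in the higher group and embryos that did not overlap, list members at an unadjusted p below 0.05, up to 4 members of each list by level, the 13 mitochondrial mRNAs and the 10 most abundant nuclear genes. Members, lists and rules were chosen with earlier results of these data known. Leaving out the pair of libraries that stood apart, the comparisons at equal reads, the limits of 20 and 5 reads, the count over every blastomere, the permutation between methods and its repeat without single embryos were chosen after seeing the data. Of the PA libraries, 4-cell-1-4 and 4-cell-2-1 nearly repeat 2-cell-1-2 and 2-cell-2-1 (r = 0.999 for each, at most 0.931 for any other pair of the 42), and leaving both out was an alternative. Gene names came from the RefSeq and Ensembl names of 12108 genes, from the table itself for 1260 and by position for 343, and 1640 stayed unnamed.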

Additional observations from a re-analysis of the deposited data

Results flagged for a closer look

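Among the 6 IVF 2-cell blastomeres, the first blastomere of embryo 1 lay farther from the others than the limit for a single outlying value in 3 of 7 measures. For a measure chosen in advance chance does this in about 1 in 20 groups, but 7SK and the signal recognition particle RNA were checked because this library had been seen to stand apart by them, so that rate does not apply to them. It had the fewest reads on genes, 8623118, where the other blastomeres had between 12092408 and 14013471. It had 11615 FPKM of 7SK, where the others had at most 5.95 FPKM. It had 199 FPKM of a signal recognition particle RNA (ENSSSCG00000032708), where the others were at 0. Leaving it out together with zygote 1, which shares the same RNAs, left 56 of the 57 higher genes above 0 and 159 of the 159 lower genes below 0, with 22 and 90 of them still at an unadjusted p below 0.05. These genes had been picked by their p with both libraries included, which favours keeping the sign. The part of 7SK and the signal recognition particle RNA in the other results was not tested beyond leaving both libraries out.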

How the results depend on the processing

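The number of genes called, 0 in the fit reported, was 2 with a pseudocount of 0.1, 4 without a filter, 3 with the mean of log2 values over blastomeres, 2 in the fit of 4 groups, 17 with blastomeres as samples and embryo as a random effect, 9 without the pair of libraries that stood apart, and 0 to 5 when 1 embryo was left out (5 without zygote 1, 3 without zygote 3). All of these calls were lower in 2-cell embryos. Higher genes at an unadjusted p below 0.05 (57) numbered 149 without a filter, 31 at 5 FPKM, 132 with 4 groups, 136 with the 2 IVF groups, 27 over blastomeres, 35 without the pair, and 36 to 103 without 1 embryo (36 without zygote 1 and 103 without 2-cell embryo 2). Lower genes (159) numbered 360, 65, 284, 345 and 321 in the first 5 of these settings, 53 with median-ratio scaling, 434 with the mean of log2 values, and 124 to 186 without 1 embryo. Lower genes made up 57.6% with median-ratio scaling and 88.6% with the mean of log2 values, against 73.6%. Replicate numbers did not pair the samples (correlations of same-numbered deviations 0.0787, 0.00046 and 0.0614), and with a replicate block 0 genes were called, 99 higher and 277 lower.

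Mitochondrial mRNAs at an unadjusted p below 0.05 (6) numbered 1 with the 2 IVF groups, 2 without the pair and 0 to 9 without 1 embryo. The difference in genes detected (-1413) was 15.3 in the other direction when either sister counted, and -1951.5 to -1126.5 without 1 embryo. The either-sister value changed direction with the embryos included. It was -523.5 without zygote 1, -48.2 without 2-cell embryo 3 and 36.3 to 302 without any other embryo. The mitochondrial share differed by 8.29 to 15.1 percentage points. PA calls (8) numbered 3, 5, 2, 3, 17, 4 and 56 with a pseudocount of 0.1, no filter, 5 FPKM, median-ratio scaling, the mean of log2 values, 4 groups and blastomeres as samples. The interaction gave 7 genes without a filter, 2 with the mean of log2 values, 12 over blastomeres and 1 without the pair, against 0. The 52 named genes at an unadjusted p below 0.05 had 973 values under the alternatives, of which 0 had the other sign and 23 an adjusted p below 0.05. As these genes were picked by their p in the same libraries, keeping the sign was largely fixed by the choice and is no test of stability. The causes were not tested. With FPKM alone, molecules per cell stay unknown, and genes under 10 FPKM, whose signal mostly sat in 1 sister, are the least certain.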

Other observations

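Further genes of at least 10 FPKM had every blastomere above every zygote, a choice made after their values were seen. GOLT1B, a Golgi transport protein, had 243, 222 and 229 FPKM in the zygotes and 420.1, 346, 252, 362, 250.4 and 267 FPKM in the blastomeres. SERBP1, a ribosome-bound RNA-binding protein, had 22.1, 26.4 and 29.7 FPKM and 46.2, 33.9, 44.4, 30.7, 31.7 and 72.2 FPKM, and RPS3, of the small ribosomal subunit, had 19, 26.9 and 26.6 FPKM and 31.1, 40.4, 40.7, 45.6, 43.5 and 42.5 FPKM. Their log2 fold changes were 0.43 ± 0.69, 0.70 ± 0.61 and 0.74 ± 1.03. BNIP3L, a receptor for the removal of mitochondria by autophagy, had 18.1, 25.9 and 28.1 FPKM in the zygotes and 35.2, 62.6, 29.1, 45.6, 44.3 and 28.7 FPKM in the blastomeres, and PARL, a protease of the inner mitochondrial membrane, had 88, 93.6 and 59.6 FPKM and 142, 93.7, 108, 95.5, 99 and 122 FPKM. CENPK, of the inner kinetochore, had 5.64, 7.75 and 5.6 FPKM and 40.3, 12.9, 9.65, 14.9, 13 and 13.9 FPKM. On the lower side, HAT1, which acetylates new histone H4, had 35.2, 70.8 and 45.3 FPKM in the zygotes and 11.6, 32.7, 0.11, 29, 15.9 and 5.37 FPKM in the blastomeres, and MAT2B, the regulatory subunit of methionine adenosyltransferase, had 65.4, 38.2 and 45.5 FPKM and 32.1, 35.8, 8.17, 17.4, 20.6 and 11.9 FPKM. None of these genes passed an unadjusted p of 0.05.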
